A study of Mus musculus with 4 samples.

Results

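Long unmethylated valleys are stretches of several kilobases in which almost every CpG lacks methylation. They were chosen by WT methylation, as runs of at least 4 adjacent fixed windows of 1000 bp on chromosomes 1 to 19, each with at least 5 listed CpGs and a mean methylation under 10% in wild-type cells. The rule gave 831 runs with 3975 windows, which is 0.326% of the 1217899 autosomal windows with at least 5 listed CpGs. A further 17900 runs of the same low methylation held only 1 to 3 windows. Since the runs were selected on WT methylation, their low WT values are a description, and a higher TetTKO value was favoured by the choice.

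The cells were E14Tg2a mouse embryonic stem (ES) cells, either unmodified (WT) or mutated by CRISPR in Tet1, Tet2 and Tet3 (TetTKO). Per the labels, the TetTKO cells were clones picked after transient transfection in 2i medium (an inhibitor of MEK and one of GSK3) and puromycin selection, and mass spectrometry detected no 5-hydroxymethylcytosine in them. Both genotypes had then been moved to medium with fetal bovine serum and LIF on gelatin and kept there for over 2 weeks. DNA methylation was read by whole-genome bisulfite sequencing (WGBS) and RNA by RNA-seq, with 1 library per genotype for each. Nothing reported here was therefore replicated, no difference was tested between cultures, and TetTKO cannot be told apart from the clone that carried it.

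Tet enzymes oxidise 5-methylcytosine to 5-hydroxymethylcytosine and beyond, which opens a route to unmethylated cytosine. Bisulfite sequencing reads 5-methylcytosine and 5-hydroxymethylcytosine alike. Valleys are known for holding CpG-island promoters of developmental regulators, many of them under Polycomb control in ES cells, beside promoters of constitutively active genes. Tet1 and Tet2 are the main Tet enzymes of mouse ES cells, and the borders of unmethylated CpG islands are known as places of Tet activity.

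The autosomes held 131671740 CpG read calls in WT and 148888474 in TetTKO. Window by window, the median depth in the runs was 8.94 reads per CpG in WT and 10.3 in TetTKO, against 8.82 and 10.1 in all windows. The run over Rn45s, the ribosomal RNA precursor, was the single run above 50 reads per CpG in WT, with 657. Chromosome 6 had 11.9 WT reads per CpG against 9.12 on the other autosomes, and 10.1 against 10.5 in TetTKO, so results on it are also given apart. FPKM (fragments scaled by transcript length and library size) of Tet1 were 15.1 in WT against 4.36 in TetTKO, those of Tet2 were 14.9 against 4.13, and those of Tet3 were 0.32 against 0.27. All 7 ES cell markers were expressed in both libraries, from Esrrb with 49.3 and 26.4 FPKM to Dppa5a with 3211 and 3344 FPKM, while the 6 fibroblast or feeder markers lay between 0 and 1.29 FPKM.

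The 4 promoters below show the kind of DNA the runs contain, as the 250 bases before the transcription start from RefSeq (GRCm38.p6, 5′ to 3′ on the gene's strand), with each CpG in capitals. Sox2 and Gbx2 stand for long runs over genes of transcription factors, Mmp14 for the run whose ends differed most among those with at least 20 CpGs there, and Hspe1 for the run whose ends were lowest in TetTKO relative to WT. They hold 27, 18, 10 and 32 CpGs in that order, and lie at chr3:34649745-34649994 (plus strand), chr1:89931177-89931426 (minus strand), chr14:54431348-54431597 (plus strand) and chr1:55087898-55088147 (plus strand). Run coordinates in the text are mm9 as in the files, and the builds were not converted into each other.
Sox2: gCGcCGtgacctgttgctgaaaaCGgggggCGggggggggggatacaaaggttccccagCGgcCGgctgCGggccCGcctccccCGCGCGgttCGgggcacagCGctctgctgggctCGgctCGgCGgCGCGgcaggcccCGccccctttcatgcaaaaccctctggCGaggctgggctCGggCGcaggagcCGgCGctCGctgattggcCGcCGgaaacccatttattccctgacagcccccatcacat
Gbx2: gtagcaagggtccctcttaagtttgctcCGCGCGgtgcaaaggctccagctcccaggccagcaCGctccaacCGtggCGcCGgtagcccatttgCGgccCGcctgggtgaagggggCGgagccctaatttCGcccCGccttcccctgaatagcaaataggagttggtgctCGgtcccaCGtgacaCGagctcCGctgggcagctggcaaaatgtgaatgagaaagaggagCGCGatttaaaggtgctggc
Mmp14: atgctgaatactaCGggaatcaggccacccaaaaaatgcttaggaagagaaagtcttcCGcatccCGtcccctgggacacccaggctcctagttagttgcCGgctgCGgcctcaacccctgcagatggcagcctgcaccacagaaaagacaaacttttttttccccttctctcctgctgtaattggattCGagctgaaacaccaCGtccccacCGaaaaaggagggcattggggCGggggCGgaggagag
Hspe1: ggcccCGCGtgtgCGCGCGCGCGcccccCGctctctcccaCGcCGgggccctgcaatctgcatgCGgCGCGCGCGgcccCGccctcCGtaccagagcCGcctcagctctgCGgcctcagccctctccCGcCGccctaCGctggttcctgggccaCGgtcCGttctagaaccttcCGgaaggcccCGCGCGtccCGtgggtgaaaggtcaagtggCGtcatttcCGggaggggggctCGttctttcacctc
Promoters were found for 638 of the 842 genes at runs, or 75.8%, so a comparison of CpG or motif content over the set was void and is not given.

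The runs were short for valleys: 502 had exactly 4 windows, 171 had 5, and 41 had 8 or more. The longest held 13 windows. A run had a median of 138 listed CpGs, with a lowest of 23 and a highest of 591. Run windows carried 30.5 listed CpGs each, against 9.63 in all autosomal windows, and together held 121253 CpGs or 0.856% of those listed.

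Nearly all runs were more methylated in TetTKO. The median methylation of a run was 1.54% in WT (range 0 to 6.97%) and 4.13% in TetTKO (range 0.0822 to 31.0%). In 821 of 831 runs the TetTKO value was higher. In the 10 others it was lower by small amounts, the largest at Foxp4 with 1.20% in WT and 0.378% in TetTKO. Over all autosomal windows the mean went the other way, from 74.2% in WT to 69.1% in TetTKO.

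The difference was concentrated at the ends of the runs. The first and last windows averaged 3.78% in WT against 11.6% in TetTKO, or 7.84 points more. The centres (the middle window, or the middle pair in runs of even length) averaged 1.56% and 4.75%, a difference of 3.18 points. Per run, the median difference was 6.64 points at the ends (quartiles 3.44 and 10.8) and 1.19 points in the centre (quartiles 0.213 and 4.06), and the ends exceeded the centre in 684 runs (82.3%). The mean difference at the ends had an SD of 0.857 points over the 19 chromosomes and that of the centres one of 0.901, which describes how even the genome was and says nothing about cultures. First and last windows were alike, with differences of 7.75 and 7.93 points.

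Followed from outside to inside, methylation stepped down over about 1 window in both libraries. At 5 windows outside the runs, methylation averaged 52.4% in WT against 55.8% in TetTKO. The window next to a run averaged 35.3% and 44.5%, a difference of 9.22 points, over the 1330 such windows with at least 5 listed CpGs. At 321 run ends the next window had fewer and at 11 it had none, and these are left out. Inside, the end window differed by 7.84 points, the second window by 3.42 points (1.67% and 5.09%) and the third by 4.04 points (1.84% and 5.88%). The TetTKO curve therefore lay above the WT curve at every position shown, with the widest gap in the pair of windows on either side of the border. Within the 1322 end windows with at least 3 CpGs in each part, the outer 500 bp went from 7.33% to 18.2% and the inner 500 bp from 2.24% to 7.29%.

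**Figure D1:**
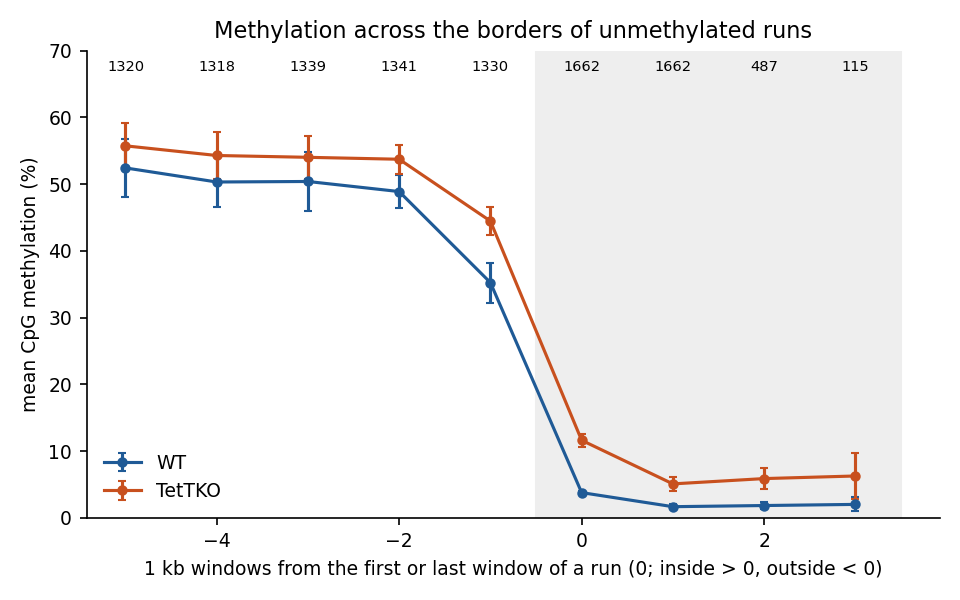
Mean CpG methylation in percent (y) by distance in windows of 1000 bp from the first or last window of a run (x, 0 is that window, negative values lie outside), for WT and TetTKO, with bars of 1 SD over chromosomes and the number of windows at the top. TetTKO lies above WT at each position, by 9.22 points in the window just outside, 7.84 points in the end window and 3.42 points in the next.

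A difference of at least 10 points was found in 524 of the 1662 end windows (31.5%) and in 198 of the 1662 second windows (11.9%). Over all autosomal windows 7.83% reached that size, and over all windows under 10% in WT 19.4% did. In 83 runs both end windows reached it, in 358 runs 1 end did, and in 390 runs neither did. The differences of the first and last window of a run had a Pearson correlation of -0.0033 over the 831 runs, all of them from the same pair of libraries.

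Runs of 1 to 3 windows give the values for shorter stretches of like methylation. Their 27513 windows averaged 3.25% in WT against 8.92% in TetTKO, and this gap of 5.67 points lay between the ends and the centres of the long runs. The gap between the ends and the inside shrank when windows of the same WT level were set side by side. Among windows of 0 to 2% in WT, the difference was 3.49 points in end windows, 1.67 in inner windows and 2.08 in runs of 1 to 3 windows. Among those of 2 to 5% it was 8.28, 6.88 and 6.61 points, and among those of 5 to 10% it was 12.1, 10.9 and 10.7 points. End windows thus had the largest difference in each class, and the SD over chromosomes of these values ran from 0.203 to 3.10 points.

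The windows outside the runs had differences close to those of the rest of the genome at the same WT level. At 10 to 30% in WT, windows next to a run differed by 14.2 points and windows away from runs by 14.8 points. At 30 to 50% the values were 10.3 and 10.4 points, and at 50 to 70% they were 1.11 and 0.923 points. Above 70% both were lower in TetTKO, by the same 8.17 points. Low and intermediate windows were therefore higher in TetTKO and highly methylated ones lower, whether or not a run was near. All windows were classed by the same WT values that enter the difference. That choice favours higher TetTKO values in the low classes and lower ones in the high classes, and its part was not tested.

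**Figure D2:**
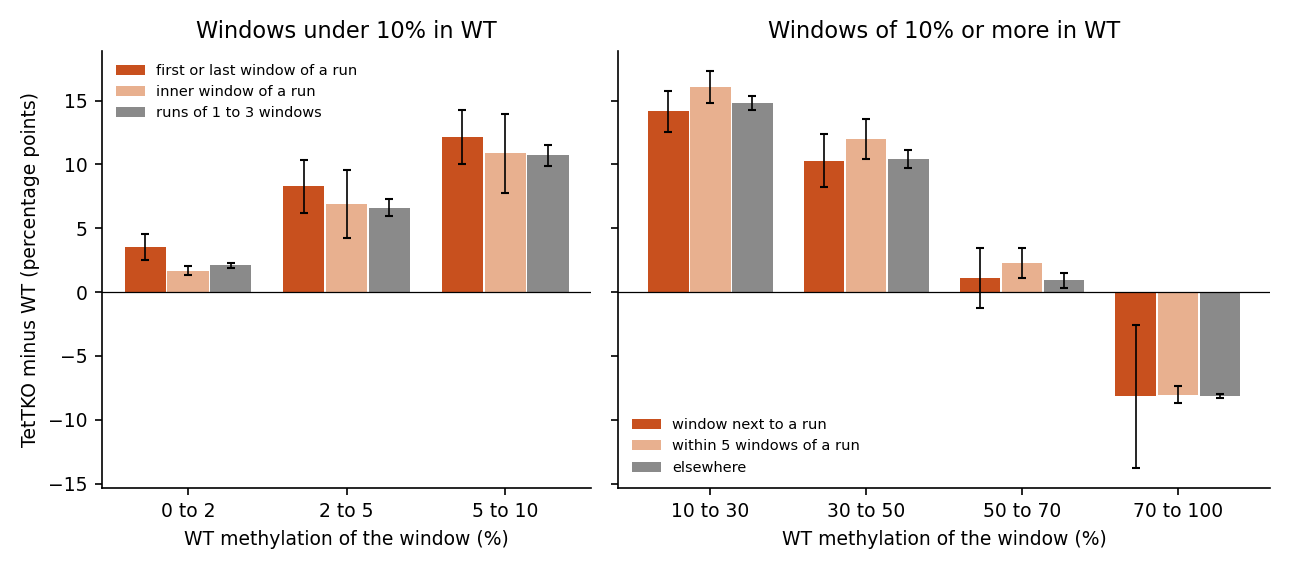
TetTKO minus WT methylation in percentage points (y) by the WT methylation of the window in percent (x), with bars of 1 SD over chromosomes. On the left, windows under 10% in WT are split into end windows of runs, inner windows of runs and windows of runs of 1 to 3 windows; on the right, the remaining windows are split into those next to a run, those within 5 windows of a run (which include the former) and those elsewhere. Differences peak at 10 to 30% in WT, with 14.2 points next to a run and 14.8 elsewhere, and are below 0 above 70%. Classing by WT favours higher differences in low classes and lower ones in high classes.

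Many runs were shorter in TetTKO, and a part lost their low state. Of the 3975 run windows, 2754 (69.3%) were still under 10% in TetTKO. Above 10% lay 46.9% of end windows, 17.6% of second windows and 23.0% of deeper windows. In 171 runs (20.6%) every window stayed under 10%, in 306 runs at least 4 adjacent windows did, and in 13 runs no window did. The same rule applied to TetTKO gave 329 runs with 1475 windows, the longest of 9 windows. The 2 sets shared 1389 windows, which is 34.9% of the WT run windows and 94.2% of the TetTKO ones.

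Runs chosen in TetTKO show the same direction although the choice then favours a low TetTKO value. Their end windows averaged 2.20% in WT against 4.19% in TetTKO, or 1.98 points more, and their centres differed by 0.67 points. In another choice, odd-numbered CpGs, at least 3 per window, picked 816 runs and even-numbered CpGs gave the values. The ends then differed by 7.71 points (4.75% and 12.5%) and the centres by 3.15 points. Neighbouring CpGs can lie on the same read, so these values were not independent of the choice. Without chromosome 6 the values were 7.87 and 3.16 points, and without the run over Rn45s they were 7.85 and 3.19 points.

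Longer runs had larger differences at their ends. The end windows differed by 6.90 points in runs of 4 windows, 8.49 in runs of 5, 9.62 in the 117 runs of 6 or 7, and 11.6 in the 41 runs of 8 to 13. Centres showed no such order, with 2.88, 2.93, 5.14 and 2.35 points. None of the 41 longest runs had a centre at least 10 points higher in TetTKO, against 80 of all 831 runs (9.63%). Ends reached that size in 19 of the 41 (46.3%), against 244 of all 831 (29.4%).

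CpG density went with the size of the difference. In the CpG-poorest 279 runs (18.7 listed CpGs per window) the centres differed by 4.93 points and the ends by 9.15 points. In the CpG-richest 277 runs (43.2 per window) the values were 1.68 and 6.52 points. The middle group lay between them, with 2.93 and 7.84 points. The WT level of the centres moved with density too, with 2.12% in the CpG-poorest, 1.40% in the middle and 1.17% in the CpG-richest group.

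Runs with no gene end had the largest differences in the centre. These 154 runs had 2.52% in WT and 8.25% in TetTKO at the centre, 5.73 points apart. Of their centres, 33 (21.4%) were at least 10 points higher, against 9.63% over all 831 runs. The other runs were grouped by the highest FPKM, in either library, of the genes with an end in them. Those under 1 FPKM (132 runs) differed by 3.86 points in the centre (2.16% and 6.02%). Runs of 1 to 10 FPKM (165 runs) differed by 2.69 points (1.30% and 3.99%), and those of at least 10 FPKM (380 runs) by 2.13 points (1.08% and 3.21%). The WT level of the centres thus fell in the same order as the difference. At the ends the values were closer, with 9.08, 7.95, 8.21 and 7.14 points in the same order. CpG density moved with these classes, since runs with no gene end held 22.1 listed CpGs per window and the others 30.8 to 35.7. Among runs with no gene end, the centre difference was 7.47 points in the 103 CpG-poorest, 2.68 in the 29 of middle density and 1.59 in the 22 CpG-richest. The parts of CpG density and of the WT level in the order of the classes were not tested.

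**Figure D3:**
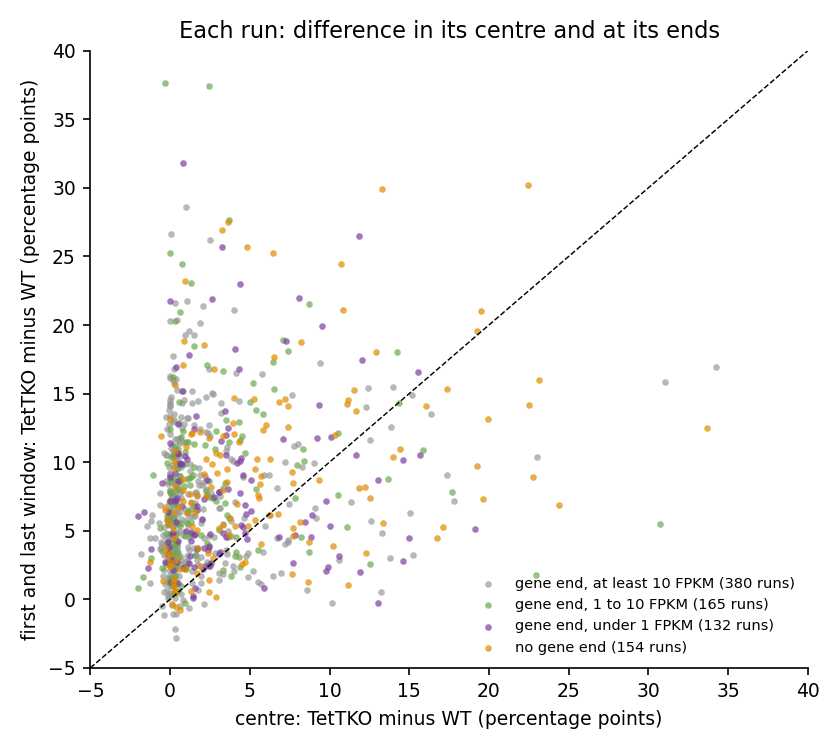
Each point is 1 run, with TetTKO minus WT methylation in percentage points in its centre (x) and in the mean of its first and last window (y). Colours give whether a gene has an end in the run and the highest FPKM of such genes in either library. The dashed line marks equal values, and 684 of 831 runs lie above it, most of them close to 0 on the x axis.

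The ends also differed by where they lay relative to genes. Of the 1662 end windows, 1071 had their middle inside a gene interval and differed by 8.07 points, against 7.43 points for the 591 outside. In the 383 runs with 1 end inside a gene and 1 outside, the end in the gene went from 3.96% to 13.1% (9.13 points) and the end outside from 3.57% to 10.3% (6.75 points). The gene side had the larger difference in 215 of these runs (56.1%). It was also poorer in CpGs, with 22.7 listed per window against 27.1.

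The run at Sox2, a transcription factor of pluripotent and neural cells, spanned 11 windows (chr3:34545000-34555999) and shows a low centre between moderately higher ends. Its first window had 7 methylated of 193 read calls in WT and 10 of 198 in TetTKO, or 3.30% and 5.51%. From window 3 to window 7 neither library exceeded 0.895%, and the centre had 2 of 481 calls in WT (0.308%) and 2 of 486 in TetTKO (0.446%). The last window had 7 of 220 calls in WT and 51 of 246 in TetTKO, or 3.12% and 20.4%. Within the run the difference was thus larger at the last window, with 17.3 points, than at the first, with 2.21. Outside it, the 3 windows before the run were also higher in TetTKO, by 12.9 to 20.3 points. Sox2 mRNA had 192 and 187 FPKM.

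Gbx2 encodes a homeobox factor of the hindbrain border that ES cells also express. Its run of 10 windows (chr1:91823000-91832999) behaved in another way, since a block inside the run was higher in TetTKO. In windows 4 and 5 of the run, WT had 0 and 0.361% methylation and TetTKO 0.233 and 0.366%. The next windows towards the higher coordinates had 4.26, 9.21, 8.48, 9.66 and 4.28% in WT, against 12.5, 45.4, 36.6, 48.0 and 29.5% in TetTKO. In window 7 of the run, 19 of 176 calls were methylated in WT and 78 of 168 in TetTKO. Only 2 of its 10 windows were under 10% in TetTKO. Gbx2 mRNA had 25.5 FPKM in WT and 17.1 in TetTKO.

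The run at Mmp14, a membrane-anchored matrix metalloproteinase, had the largest difference at the ends among runs with at least 20 CpGs there. It spanned 4 windows (chr14:55049000-55052999). The first went from 12 of 201 calls to 86 of 214 (5.34% and 42.1%), and the last from 9 of 205 to 101 of 263 (4.33% and 42.5%). Both inner windows stayed low, with WT values of 1.67 and 1.62% against TetTKO values of 3.43 and 4.72%. The pooled calls of both ends gave 5.17% methylated in WT (exact 95% interval 3.23 to 7.80) and 39.2% in TetTKO (34.8 to 43.7). These intervals cover counting error only, and a read over several CpGs enters several times, so they are too narrow. Mmp14 mRNA had 5.43 and 4.48 FPKM.

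Other runs with large end differences were those at Tnrc18 (7.28% in WT and 39.1% in TetTKO), 6430527G18Rik (5.08% and 33.7%) and B3gnt7 (6.74% and 33.4%). Their centres stayed near WT, with differences of 0.802 points at Tnrc18, 0.982 at 6430527G18Rik and 0.043 at B3gnt7. The end value at 6430527G18Rik rested on its first window, which held 5 listed CpGs and went from 8.99% to 62.1%. Its last window went from 1.17% to 5.30%.

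The run with the largest centre difference was that at Lefty1, a secreted inhibitor of Nodal signalling. Its 4 windows (chr1:182864000-182867999) read 0.873, 9.41, 3.12 and 7.02% in WT against 21.0, 46.9, 34.1 and 20.8% in TetTKO. In the second window 11 of 111 calls were methylated in WT and 74 of 156 in TetTKO. The run was highest in its middle in TetTKO, in contrast to the valleys at Sox2 and Mmp14. The windows on its right-hand side went the other way, with 44.0, 71.1 and 85.0% in WT against 37.2, 47.4 and 71.4% in TetTKO. Lefty1 mRNA had 62.3 FPKM in WT and 63.7 in TetTKO.

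Other runs with large centre differences had 4 windows each and no gene end. The run 1409 bp from Fam100b went from 6.91% to 30.1% in its centre, the run in Asns (asparagine synthetase, on chromosome 6) from 6.42% to 28.9%, the run 38275 bp from Tbc1d1 from 3.93% to 26.4%, and the run in L1td1 from 7.34% to 27.3%. At the other extreme, centres were lower in TetTKO at Foxp4 (2.52% and 0.495%), Ebf1 (4.16% and 2.16%) and Rbpj (7.07% and 5.23%).

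The lowest difference at the ends belonged to the run shared by Hspd1 and Hspe1, which encode the mitochondrial chaperonin and its co-chaperonin (chr1:55142000-55145999). Its first window had 8 of 89 calls methylated in WT and 3 of 114 in TetTKO (8.28% and 2.45%), and its 3 other windows lay between 0.209 and 1.24% in both libraries. The run at Zfp91 and U05342 had 3.81% and 1.61% at its ends, and that at Anp32b had 5.08% and 3.95%. No window of these 3 runs exceeded 5.04% in TetTKO. Hspd1 mRNA had 883 and 922 FPKM, and Hspe1 mRNA had 811 and 777 FPKM.

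**Figure D4:**
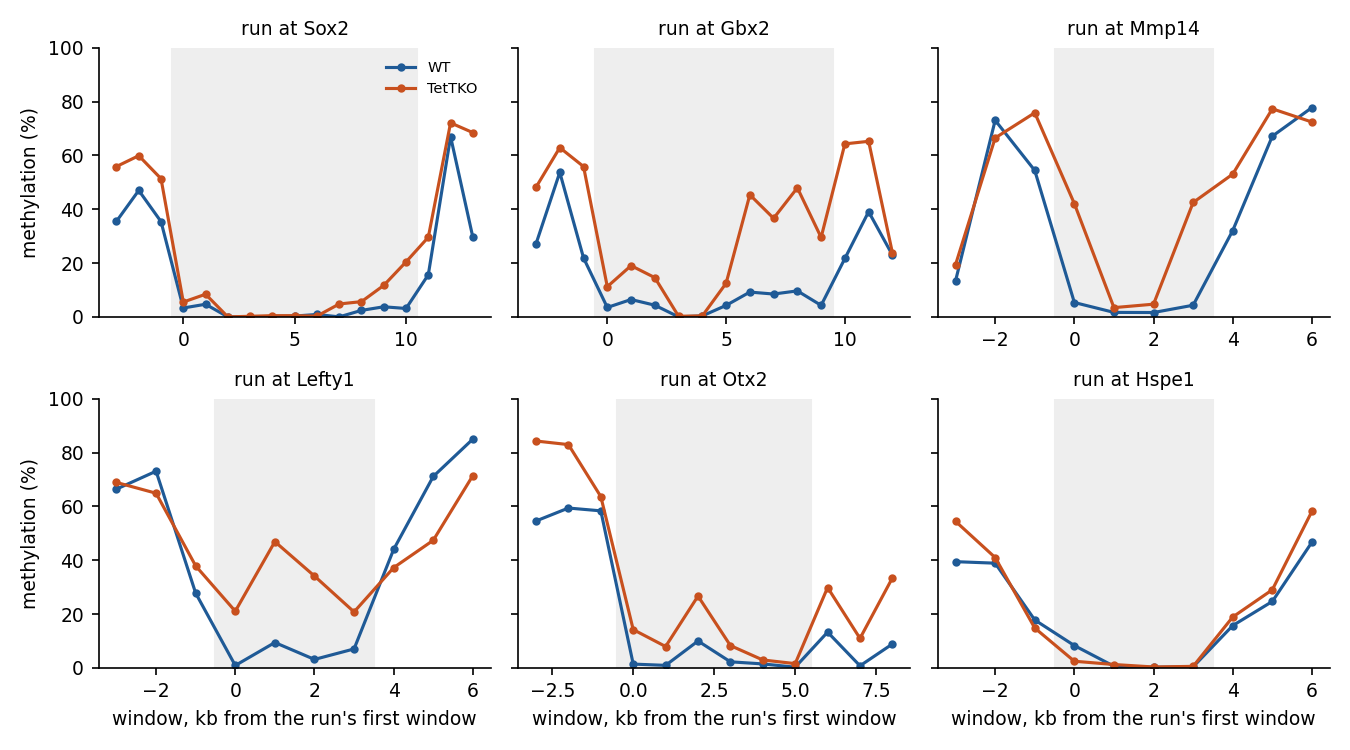
CpG methylation in percent (y) in each window of 1000 bp, by its distance in kilobases from the run's first window (x), for 6 runs with 3 windows on each side, WT and TetTKO; the grey area is the run. Inside the run at Mmp14, the end windows exceed 40% in TetTKO and the inner windows stay low. A block inside the run at Gbx2 lies between 29.5 and 48.0% in TetTKO. Inside the run at Lefty1 the middle windows are the highest in TetTKO, and inside that at Hspe1 neither library exceeds 8.28%.

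The 10 longest runs were taken with ties broken by the number of listed CpGs, which put Gbx2 ahead of the 4 other runs of 10 windows. Beyond Sox2 and Gbx2 they lay at Rhof (13 windows), Bahcc1, Tnrc18 and Rarg (12 each), and Trim71, Anp32a, Ahdc1 and Spry4 (11 each). They hold a retinoic acid receptor (Rarg), an RNA-binding ubiquitin ligase (Trim71) and an antagonist of FGF signalling (Spry4). All 10 were higher in TetTKO as whole runs, with TetTKO values from 2.66% at Rhof to 15.2% at Gbx2. Their ends ranged in TetTKO from 10.4% at Rhof to 39.1% at Tnrc18. The runs at Rarg and Ahdc1 lay inside these genes and held no gene end. RNA of the genes ranged from 0.45 FPKM in WT and 0.14 in TetTKO at Bahcc1 to 192 and 187 FPKM at Sox2.

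The threshold of 10% passed through a continuous range of values. Just inside it lay the runs at Cnn3, Gabbr1 and Otx2, with highest WT windows of 9.98, 9.98 and 9.97%. Just outside it lay 3 runs of 3 windows whose next window had 10.001, 10.022 and 10.029% in WT, respectively on chromosome 5 at 37636000 to 37638999, on chromosome 9 at 58122000 to 58124999 and on chromosome 4 at 57968000 to 57970999.

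A total of 842 genes had an end of their interval in a run, and 86 of them lay wholly inside one. The files give no strand, so start and end of a gene could not be told apart. Of the 831 runs, 753 were overlapped by a gene, 677 of these held a gene end, and 78 touched no gene. The genes at runs were expressed more often than others: 657 of 842 (78.0%) had at least 1 FPKM in either library, against 49.3% of 21478 autosomal genes, and 49.4% had at least 10 FPKM in WT against 23.4%. Their median was 9.38 FPKM in WT and 9.91 in TetTKO.

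RNA of the genes at runs was close to equal in the libraries. In such bulk samples, fewer cells with a transcript and less of it per cell cannot be told apart. Of the 657 genes with at least 1 FPKM, 11 exceeded a 2-fold difference with the higher value in TetTKO and 11 with the lower value there, each 1.67%, on a log2(FPKM + 1) scale that understates the change of low genes. Among all 10596 autosomal genes of that level, 1.68% were higher and 0.831% lower. The share of higher genes was that of the background, and the share of lower genes rested on 11 genes, 2 of them on chromosome 6. The median log2 difference was -0.02 for genes at runs and -0.009 for all.

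On chromosome 6, where WT DNA depth was also higher, all 25 expressed genes at runs were lower in TetTKO, with a median log2 difference of -0.44. The part of that chromosome in the counts is given by leaving it out: 11 genes were then higher and 9 lower, and the median was -0.01. The 62 expressed genes wholly inside runs had a median of -0.17, with 1 gene higher and 2 lower.

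Genes with 2-fold RNA differences lay at runs with small and with large methylation differences. Of 171 expressed genes whose run ends differed by at least 10 points, 3 were 2-fold higher and 5 lower, and of 486 genes with smaller end differences 8 were higher and 6 lower. Of 37 expressed genes at runs with a centre at least 10 points higher, 1 was higher and 2 were lower, with a median log2 difference of -0.19. These differences between classes were not tested.

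The genes with the largest higher values included factors of the step from naive to formative pluripotency. Otx2, a homeobox factor of that step and of the anterior brain, had 3.98 FPKM in WT and 13.97 in TetTKO. Pou3f1, a POU factor of the epiblast, had 2.39 and 7.32 FPKM. Both runs were higher at their ends in TetTKO, from 0.815% to 7.89% at Otx2 and from 3.82% to 13.5% at Pou3f1, and the centre at Otx2 went from 6.10% to 17.5%. Hmga2, an AT-hook chromatin protein, had 1.06 and 4.17 FPKM with a centre under 0.23% in both libraries and ends of 0.368% and 3.96%.

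Others in the group were an activator of basal transcription (Abt1, 18.01 and 44.3 FPKM), a phosphatase of MAP kinases (Dusp4, 6.25 and 14.9), an angiomotin-family protein (Amotl2, 10.9 and 24.8), an atypical cyclin (Ccno, 1.63 and 5.29) and a protocadherin (Pcdh1, 0.61 and 2.72). Ends at Dusp4 went from 2.48% to 14.2% and at Amotl2 from 4.31% to 17.9%. Higher RNA was thus found at runs with little and with large differences of methylation.

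The genes with the lowest values in TetTKO relative to WT were of mixed function. Apoe, a lipid carrier, had 300.33 FPKM in WT against 114.2 in TetTKO, and its run ends went from 1.11% to 8.61%. Bmp4, a ligand of the BMP pathway that acts with LIF in serum-grown ES cells, had 23.5 and 10.04 FPKM. Its run of 7 windows had 0.222% and 4.18% in the centre and 3.77% and 13.8% at the ends. Tfeb, a transcription factor of lysosome genes, had 18.98 and 7.77 FPKM with a centre of 0.103% and 0.534% and ends of 1.45% and 7.85%.

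Ccnd2 (cyclin D2, 5.57 and 1.37 FPKM) and 1190002F15Rik (10.2 and 1.11 FPKM) lie on chromosome 6. Rasgrp2, an exchange factor for Rap and Ras, had 21.9 and 7.27 FPKM, Gcat, an enzyme of threonine breakdown, had 38.7 and 14.6 FPKM, and LOC545261 had 12.8 and 4.91 FPKM. Ends at Ccnd2 went from 5.16% to 22.2%. Those at LOC545261 went from 6.88% to 21.8%, with a centre of 4.95% and 20.1%. Ends at Gcat had 0.394% and 1.06%, while its centre went from 8.40% to 17.0%.

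**Figure D5:**
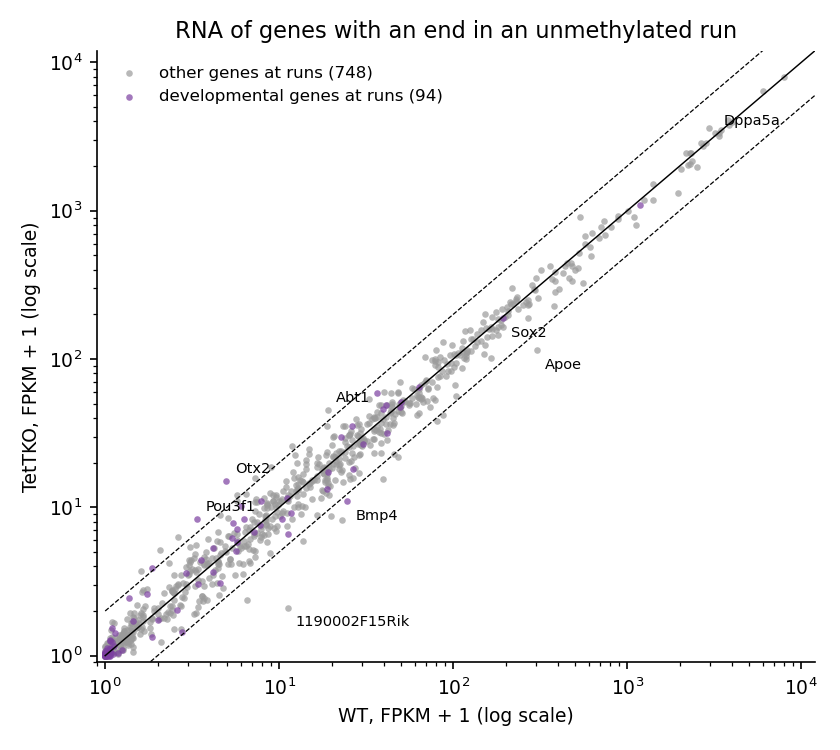
RNA of the 842 genes with an end in a run, as FPKM + 1 in WT (x) and TetTKO (y), both on log scales, with developmental genes in purple. The solid line marks equal values and the dashed lines a 2-fold difference, outside which lie 11 genes of at least 1 FPKM on either side, among them Otx2 and Pou3f1 above and Apoe and Bmp4 below.

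Developmental regulators held part of the valleys. Of 444 genes in 9 lists of Hox, other homeobox, forkhead, Sox, T-box, Gata, zinc-finger, bHLH and signalling genes, 94 had an end in a run, at 93 runs. Over all 21478 autosomal genes, 842 had an end in a run, and the counts of each list below stand beside that share. Among the 94 developmental genes at runs, 44 had at least 1 FPKM, of which 3 were 2-fold higher (Otx2, Pou3f1 and Fst) and 1 was lower (Bmp4). The 3 higher genes are 6.82% of the 44, against 7.25% (5 of 69) of expressed developmental genes not at runs and 1.68% of all autosomal genes of that level. The lower gene is 2.27%, against 4.35% (3 of 69) and 0.831%. Their median log2 difference was 0.03. The 93 runs differed by 3.16 points in the centre and 7.38 points at the ends, against 2.51 and 7.58 points for runs at other genes.

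Among homeobox genes outside the Hox clusters, 39 of 144 were at runs, and 8 of these had at least 1 FPKM. Pou5f1, the pluripotency factor Oct4, had a run of 8 windows with 1.32% in WT and 2.25% in TetTKO and 1178 and 1092 FPKM. The silent Pitx1, a factor of hindlimb and pituitary, went from 4.75% to 11.7% over 7 windows, and Irx2 went from 3.76% to 11.4% over 6. Of 39 Hox genes, 6 had an end in a run and none of these reached 1 FPKM. The run at Hoxd11 had 2.03% and 6.97%, that shared by Hoxb7 and Hoxb8 had 2.53% and 4.81%, and that at Hoxb2 had 1.81% and 6.52%.

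Sox genes were represented by 5 of 18 members, forkhead genes by 6 of 41, T-box genes by 2 of 16 and Gata genes by 2 of 5. Sox11, a neural Sox factor, went from 1.40% to 6.25% over its run, Sox4 from 1.15% to 3.21%, and Sox12 from 0.337% to 1.35%. Foxb2 went from 2.80% to 9.64%, Foxd3, a factor of ES and neural crest cells, from 1.81% to 4.50%, Foxo3 from 1.51% to 2.99% and Foxf2 from 1.21% to 4.30%. Tbx3 had 2.43% and 5.68%, Tbx2 had 5.44% and 10.1%, Gata3 had 6.38% and 11.1% and Gata6, a factor of primitive endoderm, had 3.35% and 11.4%. All named members of these families except Foxp4 were higher in TetTKO as whole runs.

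The list of zinc-finger factors of the Zic, Gli, Sall, Sp, Klf and Egr families had the largest share among the 9, with 18 of 36 at runs. Sall4, a partner of Oct4 in ES cells, had a run of 9 windows with 0 in the centre of both libraries and ends of 6.63% and 26.9%. Sall1 had 1.02% and 3.798% over 8 windows, Egr3 had 1.90% and 4.82% over 7, and Sp5, a target of Wnt signalling, had 2.98% and 8.07% over 6. None of the 14 expressed members was 2-fold higher or lower.

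Of the bHLH genes 8 of 55 were at runs, led by Hes1, a Notch effector, whose 8 windows had 1.36% and 3.33% and whose ends were 0.609% and 0.298%. Id3, an inhibitor of bHLH factors and a BMP target, had 3.16% and 6.22% with 35.3 and 58.1 FPKM. Bhlhe41 had 2.84% and 5.69%, and Bhlhe40 had 1.78% and 3.61%. Signalling ligands and inhibitors gave 8 of 90, and their ends had the largest median difference among the 9 lists, with 12.7 points. Fgf4, which drives ES cells towards lineage entry, had ends of 4.97% and 24.2% and mRNA of 49.0 and 50.2 FPKM. Fgf11 had ends of 4.18% and 19.5%, and Fst, an inhibitor of activin, had ends of 3.72% and 13.3% with 0.86 and 2.88 FPKM.

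Pluripotency genes were at runs in 12 of 23 cases, and none of the 12 was 2-fold higher or lower. Their runs had a median difference of 0.206 points in the centre and 7.76 points at the ends. Tdgf1, the Nodal co-receptor Cripto, had 7 windows with 0.917% and 17.2% at the ends and 0 in the centre of both libraries, and 573 and 679 FPKM. Its first window had 0 of 37 calls methylated in WT and 11 of 46 in TetTKO. Prdm14, named after its values were seen, differed most in the centre, from 3.47% to 19.3%.

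Of the 28 Polycomb genes, 6 were at runs. Phc1 had 1.04% and 3.94% over 8 windows on chromosome 6, Eed had 0.967% and 1.69%, and Jarid2 had 0.214% and 0.785%, each over 6. None of the 5 expressed members was 2-fold higher or lower.

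Of 37 imprinted genes, Gnas alone had an end in a run. That run of 5 windows went from 1.98% to 18.4% in its centre and from 4.39% to 17.9% at its ends, while Gnas mRNA had 35.3 and 34.1 FPKM. None of the 59 clustered protocadherin genes was at a run. With 842 of all 21478 autosomal genes at runs, lists of this size would hold few such genes. Neither count sets these families apart.

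Small genes with abundant RNA lay wholly inside runs. Among ribosomal protein genes, 16 of 75 were at runs. Rps2 had 3388 FPKM in WT and 3337 in TetTKO, although the centre of its run went from 2.27% to 15.5%. Rpl13a had a run of 9 windows with 1.14% and 3.30%. Rpl35 lay only partly inside its run, which had 1.46% and 2.62%. At Rpl18 the ends went from 8.46% to 34.6% with 2317 and 2463 FPKM. Other genes with abundant RNA inside runs were Ptma (3374 and 3165 FPKM), Dppa5a, Hist1h1a (2503 and 1983) and Rps9 (2309 and 2062).

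Replication-dependent histone genes were at runs in 17 of 68 cases, spread over 6 runs. The run shared by Hist1h2af, Hist1h3g and Hist1h4h had 7 windows with 0.551% in WT and 1.59% in TetTKO, and that at Hist1h1a had 0.919% and 2.58%. The 14 expressed members had a median log2 difference of -0.24, with none 2-fold higher or lower. Such genes share near-identical sequence, so how their reads were assigned could shift their values.

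Of the 78 runs that touched no gene, 55 lay over 5 kb from the nearest one. The following were singled out after their values were seen. A run of 7 windows lay 102618 bp from Sox2 (chr3:34654000-34660999) and went from 2.87% to 11.6%. One of 7 windows began 1238 bp from the end of the Tet1 interval (chr10:62344000-62350999) and had 1.67% and 3.39%, and a second, 15238 bp away, had 5.77% and 11.7%. A run of 6 windows 11773 bp from Cbx8 had 4.25% and 11.1%, and one of 7 windows 2121 bp from Nr4a3 had 3.70% and 6.17%. All 5 were higher in TetTKO.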

How the data were processed

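WGBS and RNA-seq of WT and TetTKO E14Tg2a cells were compared, with 1 library per genotype and assay. The deposited methylation files give, for each CpG, a fraction methylated beside the underlying read count, methylated and total. Every listed CpG has at least 5 reads in both libraries. The submitters' processing notes name Trim Galore, Bismark 0.7.9, Bowtie, SAMtools and mm9. The deposited expression files hold FPKM per gene interval. For these the notes name TopHat2 2.0.2 and Cufflinks 2.0.2, with gene models not given in the sources used here.

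Here the count of methylated reads was divided by all reads per CpG and averaged over CpGs within each window of 1000 bp, so that deeply read CpGs did not weigh more. The end value of a run is the mean of its first and last window. FPKM of a symbol with several rows was summed, a pseudocount of 1 FPKM was added before log2, and only genes reaching 1 FPKM in WT or TetTKO entered the counts. Gene starts were moved by 1 base, since the files count them from 0. Depth of the RNA libraries is unknown. With 1 library per group there was no test between genotypes. Per value, the spread is an SD over 19 chromosomes or an exact 95% binomial interval for counting error.

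Named were the 10 longest runs, the 6 highest and 3 lowest by centre and by end difference with at least 20 CpGs, the 3 nearest the threshold on each side, the 8 genes with the largest differences in each direction, the 8 most abundant genes inside runs, and the 4 members of each list in the longest runs. A few of the runs and genes under this rule are not reported here. The runs, lists and rules were chosen with earlier results of these data known. The code that finds runs was tested on simulated data. Python 3.11.15, pandas 2.3.3 and NumPy 2.4.6 were used, with SciPy 1.17.1 for intervals and matplotlib 3.10.9 for figures.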

Additional observations from a re-analysis of the deposited data

How the results depend on the processing

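TetTKO was higher than WT at run ends and centres under all alternatives tried. The number of runs (831), end difference (7.84 points) and centre difference (3.18 points) became 407, 5.26 and 1.66 with a threshold of 5%, and 1270, 9.58 and 4.17 with one of 15%. They became 158, 10.1 and 4.42 with at least 6 windows, and 2654, 6.37 and 2.34 with at least 3. Only CpGs with at least 10 reads gave 163, 6.08 and 2.65. Runs chosen in TetTKO gave 329, 1.98 and 0.67. At least 10 CpGs per window gave 562 runs with 6.87 and 2.73 points, a grid shifted by 500 bp gave 882 with 7.51 and 3.10, and choice on odd CpGs gave 816 with 7.71 and 3.15. Pooled reads gave 823 runs and a centre difference of 3.25 points. The run over Rn45s was left out as an alternative chosen after seeing the data. The cause of these shifts was not tested.

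Genes at runs 2-fold higher and lower (11 and 11) became 22 and 21 with a pseudocount of 0.1 FPKM, 2 and 5 with one of 5 FPKM, 1 and 2 for genes wholly inside runs, and 6 and 3 for runs chosen in TetTKO. Their median log2 difference (-0.024) was -0.033 with at least 5 FPKM, 0.0 with no minimum, -0.168 for genes wholly inside, -0.014 without chromosome 6 and -0.008 for runs chosen in TetTKO. Of 59 alternative values, 22 stayed within the bounds set for an unchanged result. No paired analysis was possible because each group had 1 library. Depth limits single windows most, such as the first at Tdgf1 with 37 WT read calls, and neither clones nor cultures were replicated.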
